A study of Mus musculus with 16 samples.

Results

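Potassium channels of the kidney tubule were examined after loss of Hes1, a transcriptional repressor that acts downstream of Notch receptors. The 9 genes described here, Kcnj1, Kcnj10, Kcnj15, Kcnj16, Kcnma1, Kcne1, Kcnq1, Kcnk1 and Kcnk5, were taken by symbol from the 28971 genes of the count table, and each symbol occurred once. All 9 passed the filter on low counts that left 15615 genes for testing. The series set out to find genes whose expression differs between the mutant and control kidneys, and its title names the cell types of the collecting duct.

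RNA came from whole mouse kidneys. Mutant animals, called Hes1 cKO (conditional knockout), carried Pax8-rtTA, TRE-Cre and Hes1 f/f. In this system doxycycline switches on Cre in the epithelium of the nephron and collecting duct, where Pax8 is active. Controls were wild type littermates, with no further alleles named. Both groups received doxycycline at 1 mg/mL in water with 5% sucrose, for 1 week from 3 weeks of age, so the drug is common to them. Libraries were 150 bp read pairs. The titles name 7 Hes1 cKO and 9 control kidneys and give no sex, while the series text gives 9 Hes1 cKO and 7 control samples. The titles were followed. The count table used holds 3 libraries named as mutant and 4 as wild type. The numbers given to them below only name columns.

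Total counts were 16973931 to 20420422 per library. Levels are given in CPM, counts scaled to library size by TMM. Hes1 itself was at 19.8, 17.2 and 17.5 CPM in the libraries named as mutant and at 42.8, 51.0, 67.6 and 60.9 CPM in those named as wild type (edgeR adjusted p 0.00357). Markers of the kidney were high in all 7 libraries, with at least 3739 CPM of Slc34a1 (proximal tubule), 2622 CPM of Umod (thick ascending limb) and 399 CPM of Aqp2 (principal cells). Xist was at 333 to 367 CPM in Hes1 cKO 3, control 3 and control 4 and at most 0.371 CPM in the others, so both groups mix libraries of high and low Xist. The summed CPM of 12 adrenal genes also differed between libraries. It was 1213 in Hes1 cKO 3, 908 in control 1, 234 in control 2, 53.6 in Hes1 cKO 1 and 2.87 to 4.42 in the other 3, with Cyp11b1, which defines the adrenal cortex, at 0 in control 3 and 4. The titles number the kidneys of a group without saying whether each came from a separate animal, and p-values measure the spread between these libraries.

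Potassium filtered at the glomerulus is largely taken back before the distal nephron, and the amount excreted is set by secretion in the connecting tubule and collecting duct. Principal cells secrete it through ROMK, encoded by Kcnj1, driven by sodium entry through ENaC, and flow-activated BK channels, built on Kcnma1, add to it. Basolateral channels of Kcnj10 and Kcnj16 set the membrane voltage of the distal convoluted tubule and link blood potassium to the activity of the sodium chloride cotransporter. Not all 9 genes are limited to the distal nephron: Kcnj15, Kcnk5, Kcnq1 and Kcne1 are best known from the proximal tubule.

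None of the 9 genes passed the quasi-likelihood F-test of edgeR, Benjamini-Hochberg adjusted over 15615 genes, at a threshold of 0.05. It called 53 genes, 0.339% of those tested, with 0.32% higher and 0.0192% lower in the mutants. An unadjusted p under 0.05 was reached by 4 of the 9 genes, Kcnj10, Kcne1 and Kcnj1 lower and Kcnq1 higher, beside 5.95% of all tested genes (3.34% higher and 2.61% lower). The ranges of the 2 groups did not overlap for 3 of the 9, Kcnj10 and Kcne1 lower and Kcnq1 higher in Hes1 cKO, beside 7.01% of all tested genes (3.71% higher and 3.29% lower). Fitted values were negative for 7 of the 9 genes and positive for 2, with a median log2 fold change of -0.19, against -0.0064 over all tested genes. DESeq2's Wald test called 2 of the 9, Kcne1 and Kcnj10, among 130 calls that made up 0.849% of the genes it gave an adjusted p. Limma-voom called none of the 9 and 0.327% of all genes. In whole-kidney RNA, fewer cells of a type and less RNA per cell cannot be told apart.

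**Figure D1:**
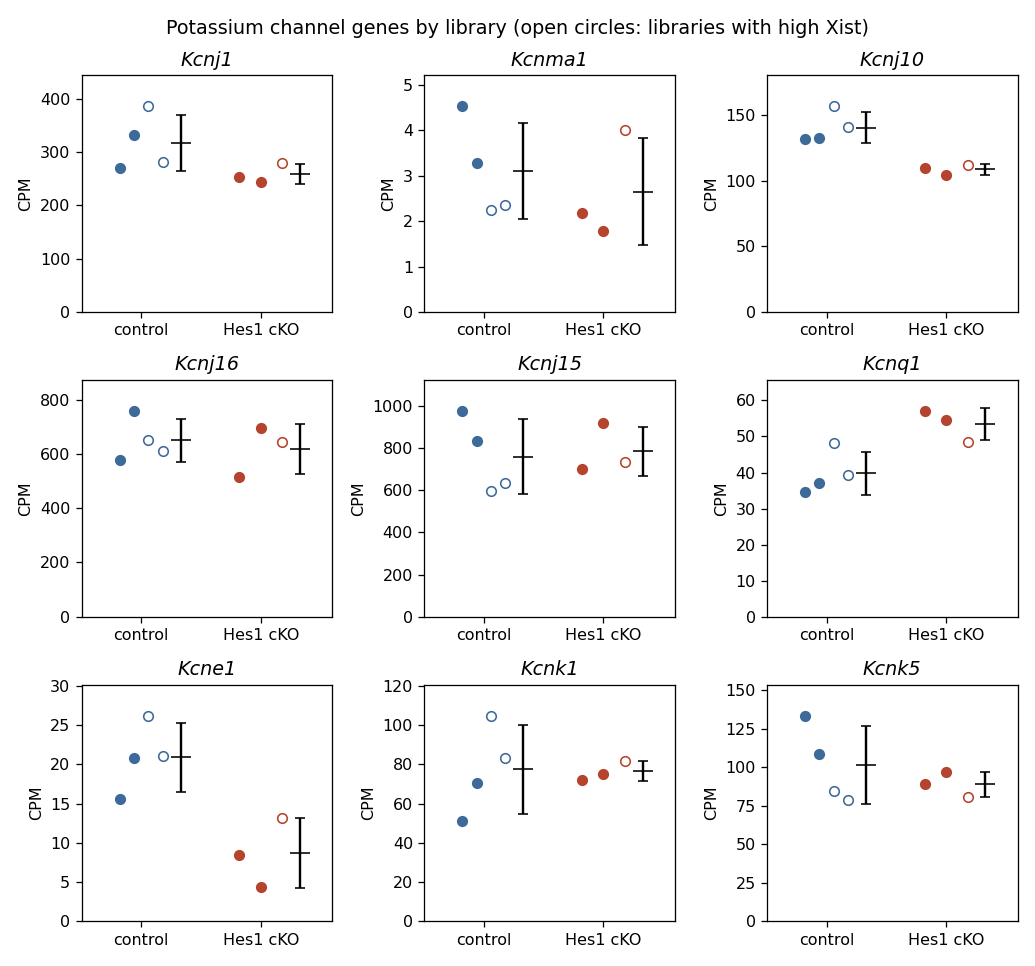
Level of each of the 9 genes in CPM (y axis, linear from 0) in the 4 control and 3 Hes1 cKO libraries; each circle is a library, open circles are libraries with high Xist, and the bars give the mean and SD of a group. The groups are apart for Kcnj10 and Kcne1, touch for Kcnq1 and overlap for the other 6.

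Of the channels of potassium secretion, Kcnj1 (ENSMUSG00000041248; GRCm38 chromosome 9, 32372493 to 32399197, plus strand) encodes ROMK, the apical inward rectifier of the thick ascending limb and collecting duct. Kcnj1 was at 252, 244 and 279 CPM in Hes1 cKO 1, 2 and 3 and at 271, 331, 386 and 282 CPM in control 1 to 4. The 2 lowest libraries were both Hes1 cKO, but Hes1 cKO 3 lay above control 1, so the groups overlapped. The log2 fold change was -0.30 (SE 0.13, 95% interval -0.59 to -0.0043), with an edgeR adjusted p of 0.833. It stayed between -0.36 and -0.19 when any library was left out.

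Kcnma1 (ENSMUSG00000063142; chromosome 14, 23289431 to 24014491, minus strand), the pore-forming subunit of the BK channel, was close to the depth limit. It had 36 to 79 counts per library, and the lowest count of 36 has an exact 95% Poisson interval of 25.2 to 49.8, which covers counting error only. Kcnma1 stood at 2.17, 1.78 and 4.00 CPM in Hes1 cKO 1, 2 and 3, against 4.53, 3.28, 2.25 and 2.35 CPM in control 1 to 4. The groups overlapped over most of their range, and the log2 fold change was -0.23 (SE 0.35, 95% interval -1.02 to 0.56; edgeR adjusted p 0.980). The 3 libraries with the most Kcnma1, control 1, Hes1 cKO 3 and control 2, are also the 3 with the highest adrenal sums. With the mean log2 of CPM plus 1 over the adrenal genes as a covariate the value was -0.31 (SE 0.195, edgeR adjusted p 0.969). Without control 1 it was 0.0032 and without Hes1 cKO 3 it was -0.65.

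BK channels carry accessory subunits that shift their voltage and calcium range. Of 8 such genes on the list, 3 were tested and none was called. Lrrc26 (a gamma subunit) was at 0.823 to 1.90 CPM in Hes1 cKO and 0.530 to 0.819 CPM in control, with a log2 fold change of 0.70 (95% interval -0.16 to 1.56; edgeR adjusted p 0.927). Kcnmb1 (the beta subunit of smooth muscle) was at 1.11 to 1.34 against 0.746 to 1.04 CPM, a log2 fold change of 0.42 (95% interval -0.18 to 1.01; edgeR adjusted p 0.938). The groups were apart for both, beside 7.01% of all tested genes, at 10 to 36 counts per library. For Lrrc26 the gap was only 0.823 against 0.819 CPM. Lrrc52, another gamma subunit, had a fitted value of the other sign, at 0.412 to 0.791 against 0.635 to 1.21 CPM (log2 fold change -0.57, edgeR adjusted p 0.941).

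Among the basolateral inward rectifiers, Kcnj10 stood lower in Hes1 cKO, while Kcnj16 and Kcnj15 overlapped between the groups. Kcnj10 (ENSMUSG00000044708; chromosome 1, 172341210 to 172374085, plus strand) encodes Kir4.1, which joins Kir5.1 in the distal convoluted tubule, connecting tubule and cortical collecting duct. It was at 109.98, 104 and 112 CPM in Hes1 cKO 1, 2 and 3 and at 132, 132, 157 and 141 CPM in control 1 to 4. Every Hes1 cKO library lay below every control library, and this held under 4 scalings of the counts. It averaged 109 ± 4.00 CPM in Hes1 cKO (SD, n = 3) and 140.4 ± 11.7 CPM in control (SD, n = 4), for a log2 fold change of -0.37 (SE 0.088, 95% interval -0.57 to -0.17). Its p ranked 119 of 15615, and the edgeR adjusted p of 0.287 did not pass. DESeq2 called Kcnj10 (adjusted p 0.0301). Over the 15 alternatives the log2 fold change stayed between -0.40 and -0.31 and the adjusted p ran from 0.0301 to 0.9997.

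Promoter sequence was read for Kcnj10, the gene with the smallest p, and Kcnj1, because Hes factors are known to bind N-box (CACNAG) and related E-box (CACGTG) letters. RefSeq promoters (GRCm38.p6) were matched for 7 of the 9 genes (not Kcne1 and Kcnq1), with 10 start sites. The Kcnj1 start site lies inside the gene, whose coordinates begin at 32372493, so any start near that end was not read. The 250 bases before the start are shown 5′ to 3′ for both, with matches in capitals, at chr1:172340960-172341209 (Kcnj10, plus strand) and chr9:32393735-32393984 (Kcnj1, plus strand).
Kcnj10: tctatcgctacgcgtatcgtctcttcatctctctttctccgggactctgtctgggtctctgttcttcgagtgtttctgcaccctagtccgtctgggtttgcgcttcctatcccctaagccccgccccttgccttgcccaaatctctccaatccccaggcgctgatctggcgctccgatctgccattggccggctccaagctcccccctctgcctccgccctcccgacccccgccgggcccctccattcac
Kcnj1: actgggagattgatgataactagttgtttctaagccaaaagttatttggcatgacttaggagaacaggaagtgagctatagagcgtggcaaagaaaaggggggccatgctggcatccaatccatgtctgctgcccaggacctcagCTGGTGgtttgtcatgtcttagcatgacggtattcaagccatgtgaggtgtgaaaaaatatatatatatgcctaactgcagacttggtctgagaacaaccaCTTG

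The letters of the N-box, read on both strands, occurred 2 times in the Kcnj1 window, at bases -105 and -4 counted from 0 at the start site. The second crosses the start, so only its first 4 bases are shown. They were absent from the Kcnj10 window. Kcnk5 held 2 N-box matches and 1 E-box match, the letters TGTTTAC of the forkhead family, to which Foxi1 belongs, were in none of the 10 windows, and the other windows had no match to these motifs. Of all 32851 promoters of 300 bases in the table, 42.5% held the N-box, 7.15% the E-box and 3.65% the forkhead letters. The E-box reads the same on both strands and cannot coincide with the N-box, and a match is a description of sequence only.

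Kcnj16 (ENSMUSG00000051497; chromosome 11, 110968033 to 111027968, plus strand) encodes Kir5.1, the partner of both Kir4.1 and Kir4.2. It was at 517, 694 and 644 CPM in Hes1 cKO 1, 2 and 3 and at 578, 759, 650.2 and 611 CPM in control 1 to 4. Hes1 cKO 1 was lowest and control 2 highest, with the other libraries interleaved. The log2 fold change was -0.07 (SE 0.13, 95% interval -0.36 to 0.22; edgeR adjusted p 0.987).

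Kcnj15 (ENSMUSG00000062609; chromosome 16, 95257558 to 95300260, plus strand) encodes Kir4.2, the partner of Kir5.1 in the basolateral membrane of the proximal tubule. It was at 701, 917 and 735 CPM in Hes1 cKO 1, 2 and 3 and at 977, 834, 594 and 634 CPM in control 1 to 4. The controls alone spanned more than the Hes1 cKO libraries did, and the log2 fold change was 0.05 (SE 0.18, 95% interval -0.36 to 0.45; edgeR adjusted p 0.992). An antisense gene, Gm49643, shares 333 bases of Kcnj15 exons (5.27%) and had 137 to 212 counts per library, against 10826 to 18554 for Kcnj15. With the strand setting of the counting unknown here, reads of the pair in that stretch cannot be told apart.

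Because Kir4.1 and Kir5.1 form a channel together, the counts of Kcnj10 were also set against those of Kcnj16 in the same library. The ratio was 0.213, 0.150 and 0.174 in Hes1 cKO 1, 2 and 3, against 0.228, 0.174, 0.241 and 0.230 in control 1 to 4. Hes1 cKO 1 lay above control 2 on this ratio, so the groups overlapped. Kir5.1 also pairs with Kir4.2, so in whole-kidney RNA the counts of Kcnj16 are not limited to cells with Kcnj10. The ratio of Kcnj10 to Kcnj1 was 0.436, 0.427 and 0.401 against 0.487, 0.400, 0.406 and 0.499, also overlapping. These ratios do not depend on the scaling of the libraries, and no test was made on them.

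Kcnq1 and Kcne1, which encode a channel and its regulatory subunit, had fitted values of opposite sign. Kcnq1 (ENSMUSG00000009545; chromosome 7, 143106362 to 143427042, plus strand) encodes the pore, and Kcne1 (ENSMUSG00000039639; chromosome 16, 92345982 to 92359468, minus strand) a small membrane protein that slows the opening of that pore. Kcnq1 was at 57.1, 54.5 and 48.5 CPM in Hes1 cKO 1, 2 and 3 and at 34.7, 37.1, 48.3 and 39.2 CPM in control 1 to 4. The lowest Hes1 cKO library and control 3 were nearly equal: they were apart under 3 of the 4 scalings and overlapped with TMM computed over all genes (48.0 against 48.2 CPM). The group means were 53.4 ± 4.45 CPM (SD, n = 3) in Hes1 cKO and 39.8 ± 5.94 CPM (SD, n = 4) in control, giving a log2 fold change of 0.42 (SE 0.12, 95% interval 0.15 to 0.69). The adjusted p was 0.512 by edgeR and 0.174 by DESeq2, and Kcnq1 was called under none of the 15 alternatives (0.152 to 0.9997).

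The antisense transcript Kcnq1ot1 lies inside Kcnq1 and shares 121 bases of its exons (2.96%). Its own counts were 64 to 157 per library, and its level was 5.88 to 6.18 CPM in Hes1 cKO against 3.67 to 8.62 CPM in control. The log2 fold change of Kcnq1ot1 was -0.02 (SE 0.26, 95% interval -0.61 to 0.57; edgeR adjusted p 0.996). Reads in the shared stretch could belong to either gene.

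Kcne1 had the largest difference of the 9 genes. It was at 8.46, 4.40 and 13.2 CPM (160, 89 and 225 counts) in Hes1 cKO 1, 2 and 3. In control 1 to 4 it was at 15.5, 20.9, 26.2 and 21.02 CPM (271, 394, 478 and 385 counts). Every Hes1 cKO library lay below every control, under each of the 4 scalings. Means were 8.70 ± 4.42 CPM in Hes1 cKO (SD, n = 3) and 20.9 ± 4.36 CPM in control (SD, n = 4), which gave a log2 fold change of -1.27 (SE 0.32, 95% interval -1.99 to -0.55), or a fold of 0.414. The edgeR adjusted p was 0.368, with a rank of 129 of 15615, and the gene was not called. It was called by DESeq2 (adjusted p 0.00230) and when edgeR ran with no filter on low counts (0.00897). Over the 15 alternatives the adjusted p ran from 0.00230 to 0.813.

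Hes1 cKO 2 held the lowest Kcne1 and weighed on the estimate: without it the log2 fold change was -0.95, and without Hes1 cKO 3, the highest of the mutants, it was -1.70. With Xist as a covariate it was -1.22 (edgeR adjusted p 0.103). Counts of Kcne1 per count of Kcnq1 were 0.148, 0.0807 and 0.273 in Hes1 cKO 1, 2 and 3, against 0.448, 0.563, 0.543 and 0.536 in control 1 to 4. The highest mutant ratio lay well below the lowest control ratio. With Kcne1 lower and Kcnq1 higher in every mutant library than in every control, this separation was fixed and adds no further evidence. The mean ratio was 0.167 ± 0.0976 (SD, n = 3) against 0.523 ± 0.0510 (SD, n = 4).

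**Figure D2:**
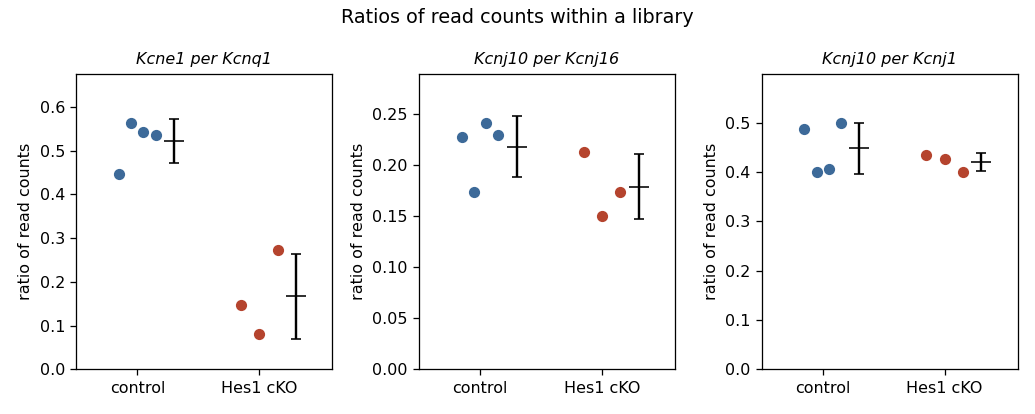
Ratio of the read counts of 2 genes within a library (y axis, linear from 0) in the control and Hes1 cKO libraries, with the mean and SD of each group beside the points. Kcne1 per Kcnq1 is at most 0.273 in Hes1 cKO and at least 0.448 in control, which follows from the levels of the 2 genes. The 2 ratios of Kcnj10 overlap between the groups.

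Both 2-pore channels overlapped between the groups. Kcnk1 (ENSMUSG00000033998; chromosome 8, 125995170 to 126030685, plus strand) encodes TWIK-1, a weakly conducting channel that cycles through endosomes. It was at 72.2, 75.3 and 81.9 CPM in Hes1 cKO 1, 2 and 3 and at 51.1, 70.3, 105 and 83.3 CPM in control 1 to 4. All 3 mutant libraries fell within the range of the controls, with a log2 fold change of -0.02 (SE 0.20, 95% interval -0.47 to 0.43; edgeR adjusted p 0.996). The 3 highest libraries, control 3, control 4 and Hes1 cKO 3, are the 3 with high Xist. With Xist as a covariate the value was 0.094 (SE 0.147, edgeR adjusted p 0.943). Kcnk5 (ENSMUSG00000023243; chromosome 14, 20140057 to 20181809, minus strand) encodes TASK-2, an alkali-activated channel tied to bicarbonate uptake in the proximal tubule.

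Kcnk5 was at 89.2, 97.3 and 80.9 CPM in Hes1 cKO 1, 2 and 3 and at 134, 109.0, 84.6 and 78.8 CPM in control 1 to 4. The log2 fold change was -0.19 (SE 0.17, 95% interval -0.58 to 0.20; edgeR adjusted p 0.962), and -0.03 without control 1. The 3 lowest libraries, control 4, Hes1 cKO 3 and control 3, are the 3 with high Xist, and the highest, control 1, also had the highest sum of proximal tubule markers (13245 CPM, against 10198 to 11433 in the others). With Xist as a covariate the value was -0.23 (edgeR adjusted p 0.724).

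**Figure D3:**
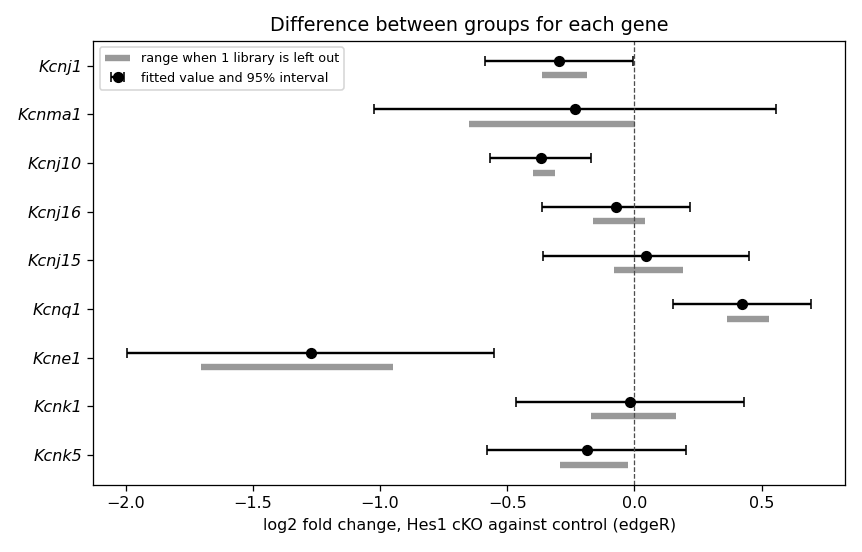
Log2 fold change of each gene in Hes1 cKO against control (x axis) from edgeR's quasi-likelihood fit, with its 95% interval (black) and, below it, the range of fitted values when 1 library is left out (grey). The intervals of Kcnj10, Kcne1 and Kcnj1 lie below 0 and that of Kcnq1 above it, before any adjustment for the number of genes tested.

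Compared per kilobase of exon, on which levels of different genes can be set side by side, the genes ranged in control from Kcnj16 down to Kcnma1. Kcnj16 led with 165 ± 19.9 CPM per kilobase (SD, n = 4), followed by Kcnj15 (120.3 ± 28.3) and Kcnj1 (95.2 ± 15.8). The ranges of these neighbours overlapped in the controls. Kcnk1 (34.6 ± 10.1), Kcnk5 (29.8 ± 7.37) and Kcnj10 (26.0 ± 2.17) formed a middle group whose ranges overlapped, below all values of Kcnj1. Kcnq1 (9.73 ± 1.45), Kcne1 (6.51 ± 1.36) and Kcnma1 (0.183 ± 0.0625) followed, each apart from its neighbours. In Hes1 cKO the order was the same, with Kcne1 at 2.71 ± 1.38 CPM per kilobase (SD, n = 3) and Kcnq1 at 13.0 ± 1.09.

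**Figure D4:**
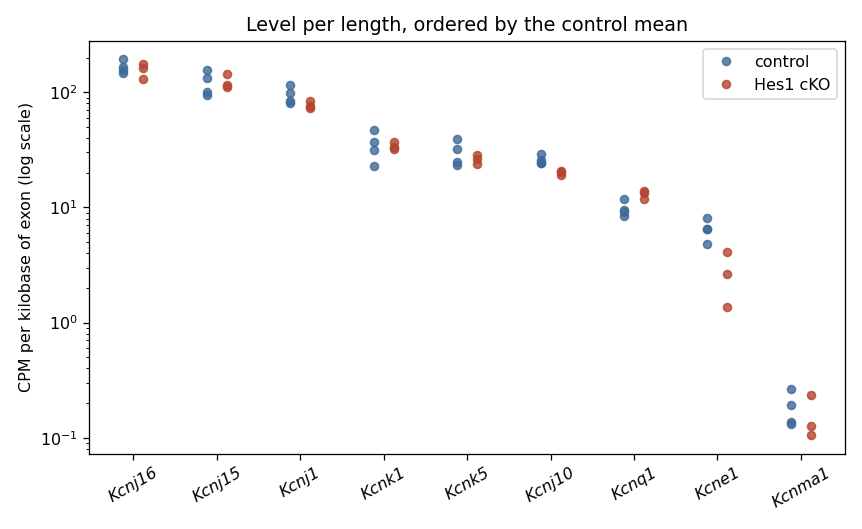
Level per length, as CPM per kilobase of exon on a log scale (y axis), of the 9 genes in each control and Hes1 cKO library (points), ordered by the control mean. Kcnj16, Kcnj15 and Kcnj1 lie highest and overlap as neighbours in the controls, and Kcnma1 lies far below the rest.

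Markers of cell types differed with the groups and are given beside the channels. The 12 intercalated cell markers summed to 1595 to 1710 CPM in Hes1 cKO and 581 to 767 CPM in control, and 10 of the 12 were called higher. Foxi1, the transcription factor that defines intercalated cells, was at 108 to 134 against 26.5 to 39.9 CPM. The 10 principal cell markers, of which 9 were tested, summed to 936, 795 and 1252 CPM in Hes1 cKO 1, 2 and 3 and to 1499, 1272, 1926 and 1719 CPM in control 1 to 4, and 1 (Hsd11b2) was called lower. Aqp2 was the largest part of this sum, at 486, 399 and 737 CPM in Hes1 cKO and 909, 682, 1107 and 1021 CPM in control. Of the 9 tested markers, 7 had negative fitted values and 2 positive, Gata3 (log2 fold change 0.19) and Elf5 (0.31). Among the mutants, the library with the lowest principal cell sum, Hes1 cKO 2, had the least Kcne1, Kcnj10 and Kcnj1, and the one with the highest, Hes1 cKO 3, had the most. Among the controls, control 3 had the highest sum and the most of these 3 genes, but the least of all 3 was in control 1 (sum 1499 CPM), not in control 2, which had the lowest sum (1272 CPM). The sum of the 6 distal convoluted and connecting tubule markers had the same extremes as these 3 genes in both groups. Its lowest values were in Hes1 cKO 2 (951 CPM) and control 1 (1175 CPM). Its highest values were in Hes1 cKO 3 (1211 CPM) and control 3 (1476 CPM). This held for the sum only, and none of the 6 markers had all of these extremes alone. Slc12a3, for example, was highest among the mutants in Hes1 cKO 1 (680 CPM) and lowest among the controls in control 2 (635 CPM). The part of either set of markers in the differences of the channels was not tested. Within each group, the libraries with high Xist also had the highest principal cell sums and the most Kcne1 and Kcnj10. For Kcnj1 this held among the mutants only, as control 2 (331 CPM) lay above control 4 (282 CPM). With Xist as a covariate the log2 fold change was -0.345 for Kcnj10 (edgeR adjusted p 0.231) and -0.27 for Kcnj1 (edgeR adjusted p 0.702).

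Sums of the 6 thick ascending limb markers (4676 to 5285 against 4513 to 5790 CPM) overlapped between groups. So did those of the 6 markers of the distal convoluted and connecting tubule (951 to 1211 against 1175 to 1476 CPM) and of the 8 proximal tubule markers (10198 to 11433 against 10515 to 13245 CPM), and no gene of these 3 lists was called. Sums for endothelium (184 to 240 against 209 to 233 CPM), smooth muscle and stroma (287 to 604 against 334 to 462 CPM) and immune cells (4.85 to 7.41 against 6.61 to 7.13 CPM) overlapped as well. All 6 distal convoluted and connecting tubule markers had negative fitted values (median log2 fold change -0.20), as did 5 of the 6 thick ascending limb markers (median -0.16). Of the latter, 2 had an unadjusted p under 0.05, Cldn16 at -0.39 with the groups apart (edgeR adjusted p 0.531) and Cldn10 at -0.28 (edgeR adjusted p 0.693), both claudins of that segment and named after their values were seen. Their part in the values of Kcnj1 and Kcnj10 was not tested. Slc12a3, the cotransporter that defines the distal convoluted tubule, was at 629 to 680 CPM in Hes1 cKO and 635 to 850 CPM in control. Its log2 fold change was -0.17 (95% interval -0.42 to 0.09; edgeR adjusted p 0.942), beside -0.37 for Kcnj10. The difference between these genes was not tested.

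**Figure D5:**
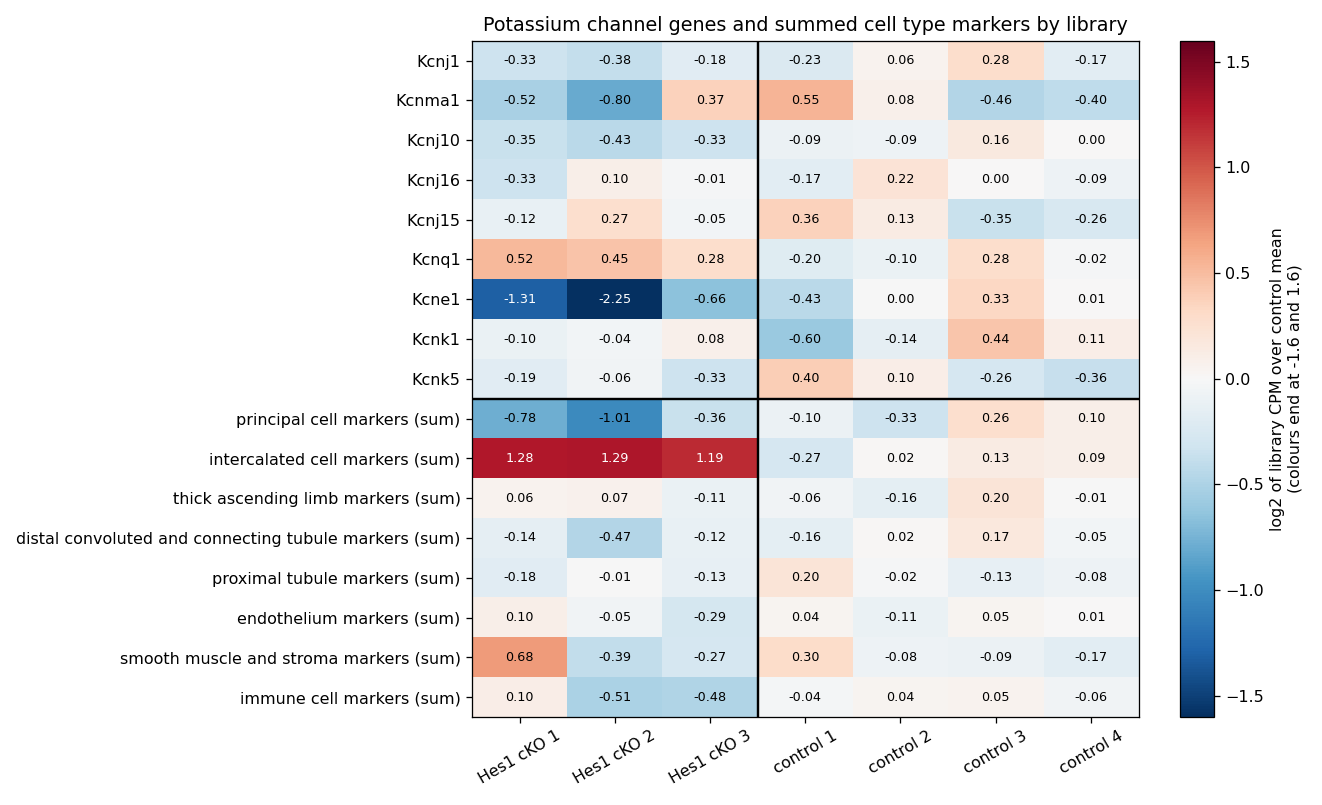
Log2 of each library's CPM over the mean of the 4 controls, for the 9 genes (upper rows) and for summed markers of 8 cell types (lower rows), with the value printed in each cell and Hes1 cKO to the left of the vertical line. Kcne1, the principal cell sum and the distal convoluted and connecting tubule sum are lowest in Hes1 cKO 2. Intercalated cell sums are high in all 3 Hes1 cKO libraries.

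Genes that regulate potassium secretion were read from a list of 15, including the WNK kinases, which sense chloride, and their degradation partners Klhl3 and Cul3. Of the 14 tested, none was called, 2 had an unadjusted p under 0.05, both higher (14.3%, beside 5.95% of all tested genes), and the median log2 fold change was 0.03. The groups were apart for 4 of the 14, 3 higher and 1 lower, beside 7.01% of all tested genes. The lower one was Wnk1, named after its values were seen, at 439 to 458 against 471 to 576 CPM (log2 fold change -0.16, edgeR adjusted p 0.938). Nedd4l, the ubiquitin ligase that removes ENaC from the membrane, was at 130 to 143 CPM in Hes1 cKO and 110 to 129 CPM in control (0.23 on the log2 scale, SE 0.086, edgeR adjusted p 0.734). Src, a kinase known to act on ROMK, was 0.22 higher on the log2 scale (SE 0.086), with an edgeR adjusted p of 0.744.

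Of 12 transporters and subunits that work beside the channels, none was called by edgeR and 8 had negative fitted values, with a median log2 fold change of -0.16. Over all genes, 8051 of the 15615 tested had negative values. An unadjusted p under 0.05 was reached by 2 of the 12, both lower (16.7%, beside 5.95% of all tested genes). The groups were apart for 1 (8.33%, beside 7.01% of all tested genes). Fxyd4, a small subunit of the sodium pump in the collecting duct, was at 17.0, 12.9 and 19.2 CPM in Hes1 cKO, against 28.6, 19.8, 29.2 and 26.5 CPM in control. Its groups were apart, and Fxyd4 stood at -0.67 on the log2 scale (SE 0.18, edgeR adjusted p 0.435; DESeq2 adjusted p 0.0363). Scnn1g, the gamma subunit of ENaC, overlapped between groups at -0.30 (SE 0.12, edgeR adjusted p 0.752). Both are also on the principal cell list.

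Of 79 other genes with a Kcn symbol, 44 were tested and none was called by edgeR, DESeq2 or limma-voom. An unadjusted p under 0.05 was reached by 7 (15.9%, beside 5.95% of all genes), 4 higher and 3 lower, and the median log2 fold change over the 44 was 0.05. The groups were apart for 7 of the 44, 5 higher and 2 lower (15.9%, beside 7.01% of all tested genes). Kcnt1, a sodium-activated potassium channel, had the smallest p. It was at 28.4, 39.7 and 26.2 CPM in Hes1 cKO, against 15.9, 18.9, 23.9 and 23.1 CPM in control, with the groups apart (log2 fold change 0.62, SE 0.18, edgeR adjusted p 0.531). Kcns3, a silent Kv subunit (3.26 to 4.59 against 1.95 to 2.74 CPM; log2 fold change 0.67, edgeR adjusted p 0.685), and the 2-pore gene Kcnk12 (0.941 to 1.88 against 0 to 0.635 CPM; edgeR adjusted p 0.729) followed.

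Kcnk3 and Kcnt1 were among the most counted of the other genes. Kcnk3, the TASK-1 channel known from the adrenal cortex, was at 28.0, 22.4 and 75.5 CPM in Hes1 cKO 1, 2 and 3 and at 75.2, 31.5, 15.2 and 15.3 CPM in control 1 to 4. Its 3 highest libraries are those with the 3 highest adrenal sums, and its log2 fold change of 0.29 had an interval of -1.05 to 1.63 (edgeR adjusted p 0.988).

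The 3 tested genes whose pattern over the 7 libraries lay nearest to Kcne1 were Spag5, Hsd11b2 and Aqp2. Their root mean square differences from it in centred log2 CPM were 0.278, 0.315 and 0.358, where Kcne1 itself had an SD of 0.814. For Kcnq1, with an SD of 0.275, they were Susd1 (0.0590), Blnk (0.0597) and Cyp2s1 (0.0648). These are the smallest of 11112 differences each, over 7 libraries, and are given as a description. Before the log, the same constant was added to CPM as for the adrenal covariate.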

How the data were processed

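The authors deposited 2 tables of raw counts per gene, per the file headers. The submitters' processing notes list FastQC, STAR and DESeq2 and the builds mm10 and GRCm38, with no role or version. Which program counted, with which strand setting and annotation, was not given in the sources used here. The first table was used, because its column names show the group. The other table's 9 columns of values show no genotype and were not used. Counts were filtered by filterByExpr (minimum count 10), scaled by TMM and tested with edgeR 4.0.16 in R 4.3.3, by its quasi-likelihood test with no covariate. Alternatives used DESeq2 1.42.0 and limma 3.58.1, other scalings and filters, covariates and fewer libraries. The fits were tested on simulated data. Coordinates and exon lengths came from GENCODE M21 (GRCm38). Protein sequences were not used here.

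The 9 members and all lists were chosen with earlier results of these data known. Besides the members, genes were named where called, or else by smallest p (2 per list, 3 among other Kcn genes), highest mean CPM (3 other Kcn genes) and nearest pattern among genes with at least 5 CPM. One gene that this rule names is not reported here.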

Additional observations from a re-analysis of the deposited data

Results flagged for a closer look

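Control 1 stood apart in the summed CPM of 7 smooth muscle and stroma markers, at 462 CPM against 334 to 356 CPM in the other controls. The gap took 0.830 of the range of the 4 controls, just above Dixon's limit for 4 samples. Among 18 groups of 4 controls examined (9 channel genes and 9 marker sums) this was the 1 found, and chance alone puts a library this far out in about 1 in 20 groups. No channel gene had a control library this far from the others. In control 1, Col1a1 was at 156 CPM (92.4 to 94.5 in the other controls) and Col3a1 at 122 CPM (66.7 to 78.5). Pdgfrb was at 56.7 CPM (48.5 to 50.3). Myh11 was lowest in control 1, and Acta2, Tagln and Dcn lay within the range of the other controls. The Hes1 cKO libraries, not examined by this rule, had sums of 604, 287 and 312 CPM.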

How the results depend on the processing

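Of the members, Kcnj1, Kcnj10, Kcne1, Kcnq1 and Kcnk5 kept their direction in all 15 alternatives. DESeq2's Wald test called 2 members, Kcnj10 (log2 fold change -0.37) and Kcne1 (-1.27), and 1 transport partner (Fxyd4); edgeR without the low-count filter called 1 member, Kcne1 (-1.28). These tests called 130 and 102 of all genes in place of 53. Leaving out 1 library gave 25 to 47 calls over all genes (27 without Hes1 cKO 1, 25 without Hes1 cKO 2), and 0 members. It gave log2 fold changes of -0.082 to 0.19 for Kcnj15, -0.16 to 0.040 for Kcnj16, -0.65 to 0.0032 for Kcnma1 and -0.17 to 0.16 for Kcnk1, so each changed sign. Kcnk1 was also positive with limma-voom (0.028), the Xist covariate (0.094) and the adrenal covariate (0.046). The cause was not tested. The order of the genes per length was the same with the longest transcript. No paired analysis was possible because the columns carry no replicate number of the labels. The scalings used for group overlap were chosen after seeing the data. Depth limits the values of Kcnma1 and the BK subunits.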
